A study of Mus musculus with 12 samples.

Results

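The phagocyte NADPH oxidase was followed here through the 6 genes of its subunits: Cybb, Cyba, Ncf1, Ncf4, Rac1 and Rac2. They were taken by name, and every probe set (a group of short probes that reads a transcript) annotated to exactly 1 of these symbols was used, which gave 13 of the 45037 probe sets tested. Each gene, like all 18193 genes counted, is led by its brightest probe set on average, and its other probe sets serve as checks. RNA of sorted newborn mouse liver cells had been hybridized to 12 Affymetrix MG430 v2 arrays, 3 for each of 4 groups. KI cells are homozygous for Q202L, a germline point mutation of PU.1 in every cell of the animal that removes its binding to c-Jun and leaves its binding to DNA, and WT cells came from littermates. Both genotypes were sorted for short-term hematopoietic stem cells (KI and WT ST-HSC) and for granulocyte-macrophage progenitors (WT GMP, and in KI a population called GMP-like). The sample records give the strain as C57Bl/6, the ST-HSC gate as lineage-negative, Sca-1+, c-kit+, CD150- and CD48+, and the GMP gate as lineage-negative, Sca-1-, c-kit+, FcγRII/III high and CD34+. The study's text differs from these records: it names fetal liver of embryos as the source, where the records give newborns taken at birth or shortly before, and it gives CD48- for ST-HSC, an intermediate CD34 level for the KI GMP-like gate, and a mixed strain background. Its flow cytometry scheme places CD48+ cells among multipotent progenitors, so ST-HSC here is the name given in the sample titles. The animals behind each sample are not named, so the p-values rest on the spread from sample to sample and this may be technical.

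The oxidase makes superoxide from oxygen with electrons of NADPH when a phagocyte takes up a microbe. Its membrane core consists of the catalytic subunit gp91phox (Cybb) and its partner p22phox (Cyba), and on activation it is joined by cytosolic subunits, among them p47phox (Ncf1) and p40phox (Ncf4), and by a Rac GTPase. Loss of the core or of a cytosolic phox subunit causes chronic granulomatous disease in people, and PU.1 is known to take part in the transcription of human CYBB.

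The starts of 3 of the 6 genes were found in the RefSeq promoter table (assembly GRCm38.p6), which holds 250 bases before and 50 bases after the start. They are shown because the transcription factor that carries the mutation binds purine-rich sites with the core GAGGAA, whereas c-Jun within AP-1 binds TGANTCA or, with some partners, TGANNTCA. Both strands were searched, and capitals mark a match to any of the 3 motifs. All 3 genes lie on the minus strand, and the sequences run 5′ to 3′ along the gene, at chrX:9469275-9469574 for Cybb, chr8:122432891-122433190 for Cyba and chr5:134229576-134229875 for Ncf1.
Cybb promoter: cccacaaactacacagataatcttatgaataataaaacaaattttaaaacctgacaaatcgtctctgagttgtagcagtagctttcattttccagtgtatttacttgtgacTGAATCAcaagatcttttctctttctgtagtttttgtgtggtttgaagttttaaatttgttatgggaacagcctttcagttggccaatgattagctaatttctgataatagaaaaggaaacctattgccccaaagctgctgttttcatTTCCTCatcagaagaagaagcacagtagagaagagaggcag
Cyba promoter: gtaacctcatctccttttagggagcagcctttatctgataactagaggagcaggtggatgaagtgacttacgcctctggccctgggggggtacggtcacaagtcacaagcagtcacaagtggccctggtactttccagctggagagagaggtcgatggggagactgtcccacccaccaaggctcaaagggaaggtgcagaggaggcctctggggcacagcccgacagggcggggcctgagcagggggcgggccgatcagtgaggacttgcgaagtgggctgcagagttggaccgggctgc
Ncf1 promoter: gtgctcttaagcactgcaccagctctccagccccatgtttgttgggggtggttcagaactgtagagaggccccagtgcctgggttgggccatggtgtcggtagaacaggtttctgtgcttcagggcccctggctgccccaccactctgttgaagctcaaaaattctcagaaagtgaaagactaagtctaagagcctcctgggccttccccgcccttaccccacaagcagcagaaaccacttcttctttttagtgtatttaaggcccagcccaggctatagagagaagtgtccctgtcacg
In the Cybb window TGAATCA begins at position -139, and TTCCTC, the reverse complement of GAGGAA, begins at position 9. The windows of Cyba and Ncf1 hold no match. Of 32851 promoters of the same length, 28.3% hold GAGGAA, 7.81% TGANTCA and 14.1% TGANNTCA, so that each of these motifs is found in many genes. A match is a run of letters and not a measured binding site.

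Within ST-HSC, 3 of the 6 subunit genes were lower in KI (Cybb, Ncf1 and Ncf4), none was higher and 3 did not pass the test, beside 1.68% of all genes called lower and 1.33% called higher. In the GMP comparison 2 of the 6 were lower in KI GMP-like cells (Cybb and Ncf1), none was higher and 4 did not pass, beside 1.40% of all genes called lower and 1.19% called higher. Cybb and Ncf1 were thus lower in both KI populations, a pattern that 0.511% of all genes had. The median log2 difference of the 6 genes was -1.22 in ST-HSC and -0.99 in GMP, whereas it was -0.02 and -0.03 over all genes. Differences are KI minus WT on the log2 scale of the deposited RMA values, tested with limma over all 12 arrays with Benjamini-Hochberg adjustment over all probe sets and called at an adjusted p under 0.05. In sorted cell pools of this kind, fewer cells of a type and less RNA per cell cannot be told apart.

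**Figure D1:**
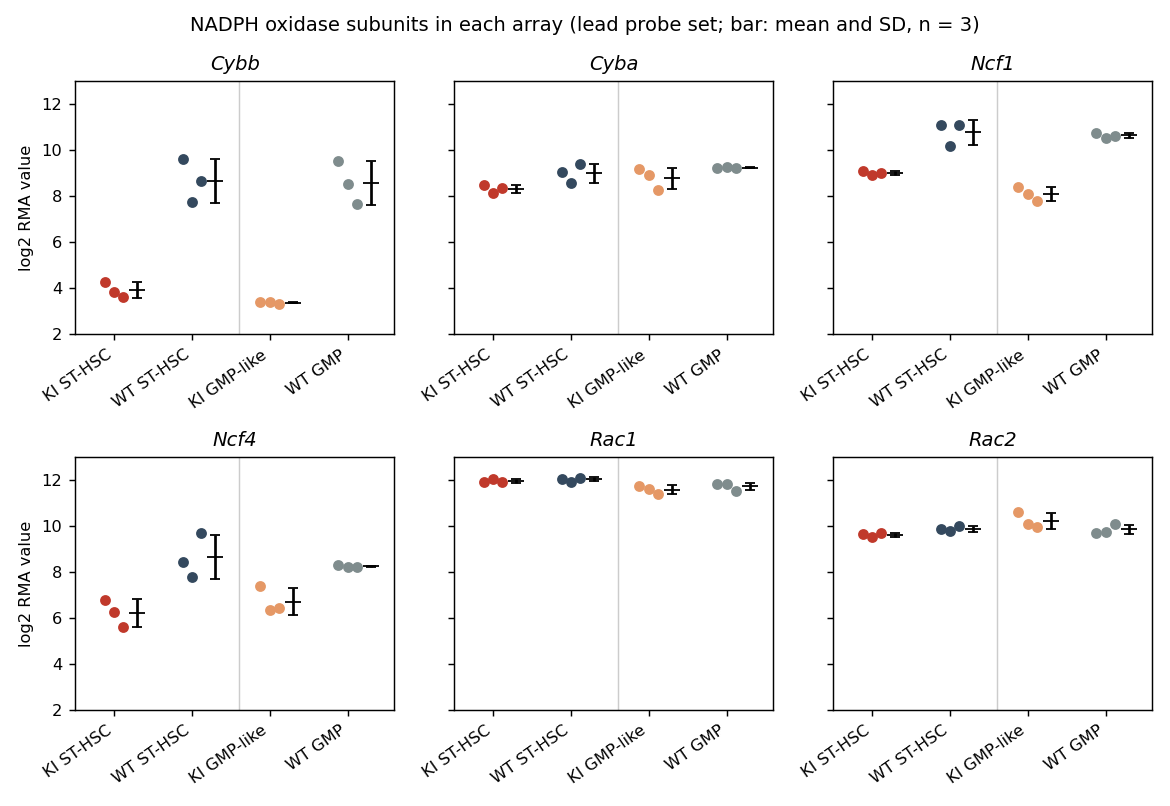
Log2 RMA value (vertical axis) of the lead probe set of each subunit gene in each of the 12 arrays, by group, with the mean and SD of 3 arrays. The KI arrays lie far below the WT arrays for Cybb (at most 4.29 against at least 7.65), below them for Ncf1 and Ncf4, and among them for Rac1.

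Cybb, the catalytic subunit with the flavin and heme groups that carry the electrons, showed the largest difference of the 6 genes in both populations. Its lead probe set (1436778_at) read 4.29, 3.86 and 3.64 in KI ST-HSC, against 9.62, 7.74 and 8.64 in WT ST-HSC. It read 3.40, 3.40 and 3.34 in KI GMP-like cells, against 9.54, 8.53 and 7.65 in WT GMP. No KI array overlapped with a WT array, and the lowest WT value exceeded the highest KI value by 3.46 in ST-HSC and by 4.25 in GMP. The log2 difference was -4.74 (SE 0.498, 95% interval -5.85 to -3.64, adjusted p = 0.000865) in ST-HSC, a 26.8-fold lower signal in KI. In GMP it was -5.19 (SE 0.498, 95% interval -6.30 to -4.09, adjusted p = 0.00052), a 36.6-fold lower signal. All KI values were below the median of all probe sets of their array, which ranged from 4.73 to 5.10 over the KI arrays, and RMA values give no detection call, so that the folds of a signal this low depend on the background correction. The WT values spread more than the KI values, with an SD of 0.328 in KI ST-HSC and 0.94 in WT ST-HSC, and 0.0346 in KI GMP-like cells and 0.944 in WT GMP.

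The other probe sets of Cybb moved the same way. For 1422978_at the difference was -4.18 in ST-HSC (adjusted p = 0.00341) and -4.49 in GMP (adjusted p = 0.00301). The third, 1436779_at, is dim, with a mean of 3.94 over the arrays, and its differences of -1.95 (adjusted p = 0.235) and -2.34 (adjusted p = 0.122) did not pass the test. Its KI and WT arrays did not overlap in either population. Of all genes, 11.2% in ST-HSC and 11.1% in GMP showed such a separation in the lower direction.

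Cybb lies on the X chromosome, and the arrays differ in Xist, the RNA of the inactive X of female cells. Xist read between 2.98 and 3.78 in the 6 KI arrays and 3.70 and 3.46 in the replicate 2 arrays of WT ST-HSC and WT GMP, whereas it read between 10.67 and 11.74 in the other 4 WT arrays. The Y-linked genes Eif2s3y and Kdm5d read between 8.58 and 9.90 in the KI arrays and the replicate 2 WT arrays. In the other 4 WT arrays they read between 2.04 and 3.76. Sex and genotype are therefore partly confounded in both populations. With only the WT arrays of low Xist, 1 per population, whose spread is then assumed to be that of the other groups, Cybb was still lower in KI ST-HSC (-3.82, adjusted p = 0.00239) and in KI GMP-like cells (-5.15, adjusted p = 0.00232). The WT ST-HSC array of low Xist had the lowest WT ST-HSC value of Cybb, Cyba, Ncf1, Ncf4, Rac1 and Rac2 (lead probe sets). Without the WT arrays of high Xist, the ST-HSC difference was -1.15 (adjusted p = 0.0816) for Ncf1 and -1.58 (adjusted p = 0.219) for Ncf4, so that only Cybb of the 6 was still called there. In GMP, Ncf1 was still called (-2.43, adjusted p = 0.0178).

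Cyba, the membrane partner that stabilizes gp91phox and docks p47phox, has 1 probe set (1454268_a_at). It read 8.47, 8.15 and 8.34 in KI ST-HSC, against 9.06, 8.57 and 9.38 in WT ST-HSC. It read 9.17, 8.90 and 8.26 in KI GMP-like cells, against 9.22, 9.26 and 9.21 in WT GMP. Every KI array was below every WT array of its population, by a gap of only 0.09 in ST-HSC and 0.04 in GMP, and 11.2% and 11.1% of all genes showed such a separation in the lower direction. The difference of -0.68 in ST-HSC (95% interval -1.23 to -0.13, adjusted p = 0.253) and that of -0.45 in GMP (95% interval -1.0 to 0.10, adjusted p = 0.47) did not pass the test.

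Among the cytosolic subunits, Ncf1 encodes p47phox, the organizer that is phosphorylated on activation and brings the others to the membrane. Its lead probe set (1456772_at) read 9.11, 8.91 and 9.02 in KI ST-HSC, against 11.07, 10.16 and 11.07 in WT ST-HSC. It read 8.41, 8.08 and 7.79 in KI GMP-like cells, against 10.76, 10.53 and 10.62 in WT GMP. The groups did not overlap, with gaps of 1.05 in ST-HSC and 2.12 in GMP. Such a separation in the lower direction was seen in 11.2% of all genes in ST-HSC and 11.1% in GMP. The difference was -1.75 in ST-HSC (SE 0.244, adjusted p = 0.0039), 3.37-fold lower in KI. It was -2.54 in GMP (SE 0.244, adjusted p = 0.00052), 5.83-fold lower in KI GMP-like cells. Unlike Cybb, the signal of Ncf1 in KI stayed well above the array medians.

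The other Ncf1 probe sets were lower as well and without overlap in both populations. The difference of 1425609_at was -2.15 in ST-HSC (adjusted p = 0.00132) and -1.86 in GMP (adjusted p = 0.00386). That of 1451767_at was -1.78 in ST-HSC (adjusted p = 0.0161), and its difference of -1.28 in GMP did not pass the test (adjusted p = 0.074). The lead probe set alone gave the larger difference in GMP.

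Ncf4 encodes p40phox, which binds a phosphoinositide of the phagosome membrane and sustains the oxidase there. Its only probe set (1418465_at) read 6.79, 6.25 and 5.59 in KI ST-HSC, against 8.45, 7.79 and 9.69 in WT ST-HSC. It read 7.37, 6.35 and 6.42 in KI GMP-like cells, against 8.28, 8.21 and 8.23 in WT GMP. The groups did not overlap in either population, with gaps of 1.0 and 0.84, a separation that 11.2% and 11.1% of all genes showed in the lower direction. The difference in ST-HSC was -2.43 (SE 0.463, 95% interval -3.46 to -1.41, adjusted p = 0.0221), 5.4-fold lower in KI. In GMP it was -1.53 (95% interval -2.55 to -0.50, adjusted p = 0.134) and did not pass. The ST-HSC call was lost without KI ST-HSC replicate 2 (-2.45, adjusted p = 0.0891) or replicate 3 (-2.12, adjusted p = 0.0944), and in a fit of the ST-HSC arrays alone (adjusted p = 0.0949).

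**Figure D2:**
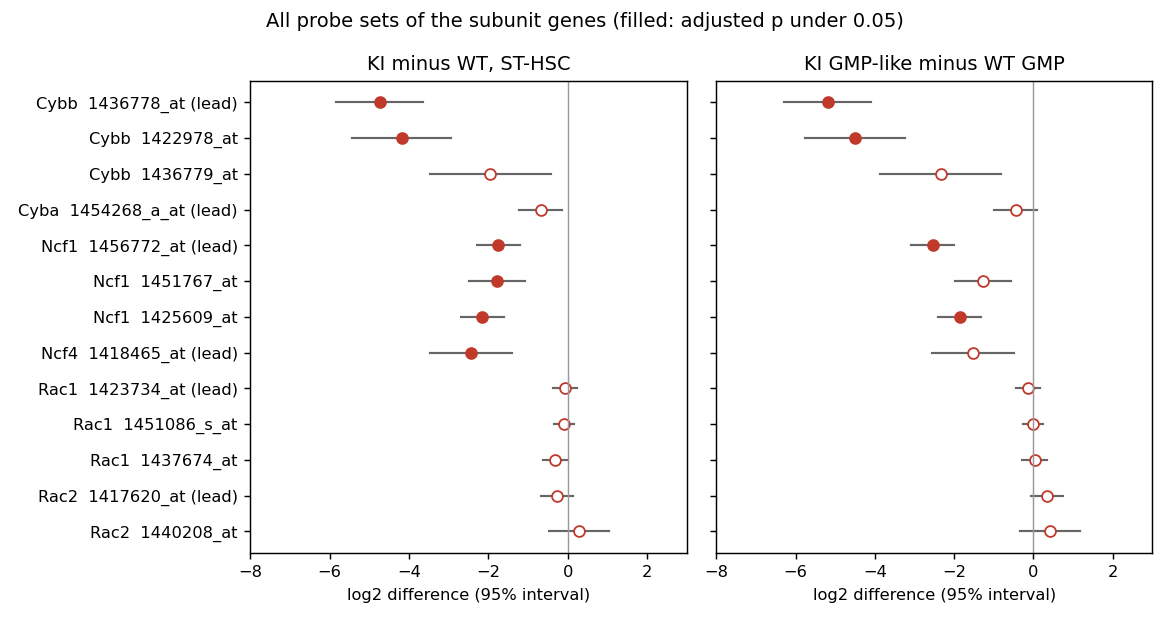
KI minus WT log2 difference (horizontal axis) with its 95% interval for all 13 probe sets of the subunit genes, in ST-HSC and in GMP; filled points have an adjusted p under 0.05. All 3 Cybb and all 3 Ncf1 probe sets lie below 0 in both populations, and those of Rac1 and Rac2 lie between -0.31 and 0.41.

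The Rac GTPases switch the assembled enzyme on in their GTP-bound form, and Rac2 is the form largely restricted to blood cells, whereas Rac1 is found in most cells. Rac1 (1423734_at) read 11.92, 12.05 and 11.90 in KI ST-HSC, against 12.04, 11.92 and 12.09 in WT ST-HSC. It read 11.74, 11.60 and 11.38 in KI GMP-like cells, against 11.80, 11.81 and 11.53 in WT GMP. The groups overlapped in both populations. The difference was -0.06 in ST-HSC (95% interval -0.36 to 0.24, adjusted p = 0.92) and -0.14 in GMP (95% interval -0.44 to 0.16, adjusted p = 0.749). The probe set 1451086_s_at, whose suffix marks probes that can bind several transcripts, gave -0.10 and -0.02, and the dim 1437674_at gave -0.31 and 0.03.

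Rac2 (1417620_at) read 9.64, 9.51 and 9.69 in KI ST-HSC, against 9.85, 9.77 and 10.01 in WT ST-HSC. It read 10.59, 10.06 and 9.94 in KI GMP-like cells, against 9.71, 9.75 and 10.08 in WT GMP. The KI arrays lay below the WT arrays in ST-HSC by a gap of 0.08, as in 11.2% of all genes, and the groups overlapped in GMP. The difference was -0.27 in ST-HSC (95% interval -0.67 to 0.13, adjusted p = 0.618) and 0.35 in GMP (95% interval -0.05 to 0.75, adjusted p = 0.432), and neither passed. The other Rac2 probe set, 1440208_at, gave 0.29 and 0.41 with overlapping groups, so that the probe sets differ in sign in ST-HSC.

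Whether the 2 populations differ in the KI minus WT difference was tested by the difference of the differences, GMP minus ST-HSC. None of the 6 genes passed this test, beside 0.0495% of all genes called in either direction. The difference of the differences was -0.45 for Cybb (95% interval -2.01 to 1.11, adjusted p = 0.928), -0.79 for Ncf1 (95% interval -1.55 to -0.03, adjusted p = 0.616) and 0.90 for Ncf4 (95% interval -0.55 to 2.35, adjusted p = 0.802). With the averaged probe sets of Ncf1 it was 0.00. For Rac2 it was 0.62 (95% interval 0.05 to 1.18, adjusted p = 0.587). These intervals carry no adjustment for multiple tests. The call of Ncf4 in ST-HSC and its absence in GMP therefore do not show that the populations differ. The fit takes the arrays of the 2 populations as independent. In both, Xist was high in WT replicates 1 and 3 and low in WT replicate 2. Same-numbered ST-HSC and GMP samples may thus share animals, which was not tested.

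Levels between the populations are given as a description only, because the array means (5.65 to 5.67 in ST-HSC, 5.44 to 5.45 in GMP) point to separate scales. Cybb averaged 8.58 ± 0.944 in WT GMP and 8.67 ± 0.94 in WT ST-HSC (SD, n = 3 each), a difference of -0.09 that is well within the spread, and 3.38 ± 0.0346 in KI GMP-like cells and 3.93 ± 0.328 in KI ST-HSC. Ncf1 likewise differed by -0.13 between WT GMP and WT ST-HSC, within the SD of WT ST-HSC, whereas KI GMP-like cells were 0.92 lower than KI ST-HSC (-0.92 on the deposited scale, -0.61 after subtraction of each array's median). For Cybb and Ncf1 the order of the WT groups turned with that subtraction, to 0.21 and 0.18. Ncf4 differed by -0.40 between the WT groups, and Cyba by 0.23, both within the larger SD of the pair. After the subtraction these became -0.10 for Ncf4 and 0.53 for Cyba, the latter above the larger SD of 0.41. Rac2 was 0.59 higher in KI GMP-like cells than in KI ST-HSC (0.90 after the subtraction). Rac1 was 0.38 lower (-0.38), which became -0.07 after the subtraction.

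The subunit genes varied together to unequal degrees. After each value was centred on the mean of its population, Pearson's r over the 12 arrays was 0.97 between Cybb and Ncf1, 0.87 between Cybb and Ncf4 and 0.88 between Cyba and Ncf4. It was 0.50 between Cybb and Rac1. For Cybb and Rac2 it was -0.15, made up of -0.66 over the 6 GMP arrays and 0.84 over the 6 ST-HSC arrays. These values describe arrays that fall into KI and WT clusters, and carry no test.

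**Figure D3:**
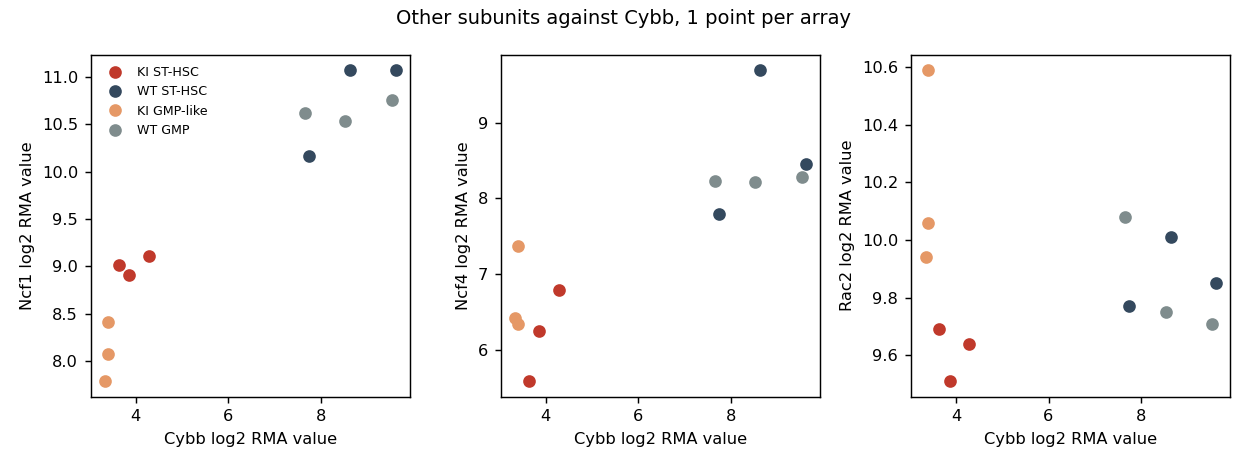
Log2 RMA values of Ncf1, Ncf4 and Rac2 (vertical axes) against Cybb (horizontal axis), 1 point per array, coloured by group. For Ncf1 and Ncf4 the KI arrays lie at the lower left and the WT arrays at the upper right, whereas for Rac2 the KI GMP-like arrays lie at low Cybb and hold the highest value, 10.59.

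By the same measure, the genes most like Cybb among all lead probe sets were Ms4a6b (r = 0.983), Cd300a (0.979) and Ms4a3 (0.974). Those most like Ncf1 were Cd300a (0.972), Gatm (0.972) and Cybb itself (0.971). Cd300a, an inhibitory receptor of myeloid cells, is thus on both lists. Ncf4 was most like Wdfy4 (0.978), Septin6 (0.971) and Sec11c (0.966), and Cyba most like Pycard (0.958), the inflammasome adaptor, Fam118b (0.951) and Ramp1 (0.946). Rac1 was most like Sf3b5 (0.940), Cdc42se2 (0.896) and Plekhd1os (0.865), and Rac2 most like Apcdd1 (0.953), Ier5 (0.946) and H1f4 (0.921). With 12 arrays in 4 groups, a high r mostly repeats the group means where KI and WT lie far apart, as for Cybb and Ncf1. The Rac1 differences of -0.06 and -0.14 are smaller than the SD of either group compared, so its r rests mostly on variation within groups.

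The wider pathway was read from lists written for this purpose. Of all genes, 1.68% were called lower and 1.33% higher in ST-HSC, and 1.40% and 1.19% in GMP. A short list with no call is near these shares. Of 16 measured partners and regulators of the oxidase (of 20 listed), none passed the test in either population, with medians of -0.01 in ST-HSC and 0.04 in GMP. Among them, Cybc1, a chaperone of gp91phox, had a difference of -1.0 in ST-HSC (adjusted p = 0.341) and 0.11 in GMP (adjusted p = 0.952). Hvcn1, the proton channel that offsets the charge moved by the oxidase, had 0.84 (adjusted p = 0.126) and 0.18 (adjusted p = 0.832), and Prkcd, a kinase of p47phox, had -0.71 (adjusted p = 0.233) and -0.63 (adjusted p = 0.27).

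Of the other NADPH oxidases and their subunits, 6 of 10 were measured and none passed. None of 7 measured genes of cytosolic NADPH supply (of 8 listed) and none of 19 measured antioxidant genes (of 21 listed) passed in either population. The smallest adjusted p among the antioxidant genes was that of Gpx1, a glutathione peroxidase, at -0.54 in GMP (adjusted p = 0.07) and -0.46 in ST-HSC (adjusted p = 0.132). Nqo1, a quinone reductase, had differences of 1.28 (adjusted p = 0.192) in ST-HSC and 1.52 (adjusted p = 0.102) in GMP, and Gclm, of glutathione synthesis, 1.60 (adjusted p = 0.141) and 1.14 (adjusted p = 0.296).

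**Figure D4:**
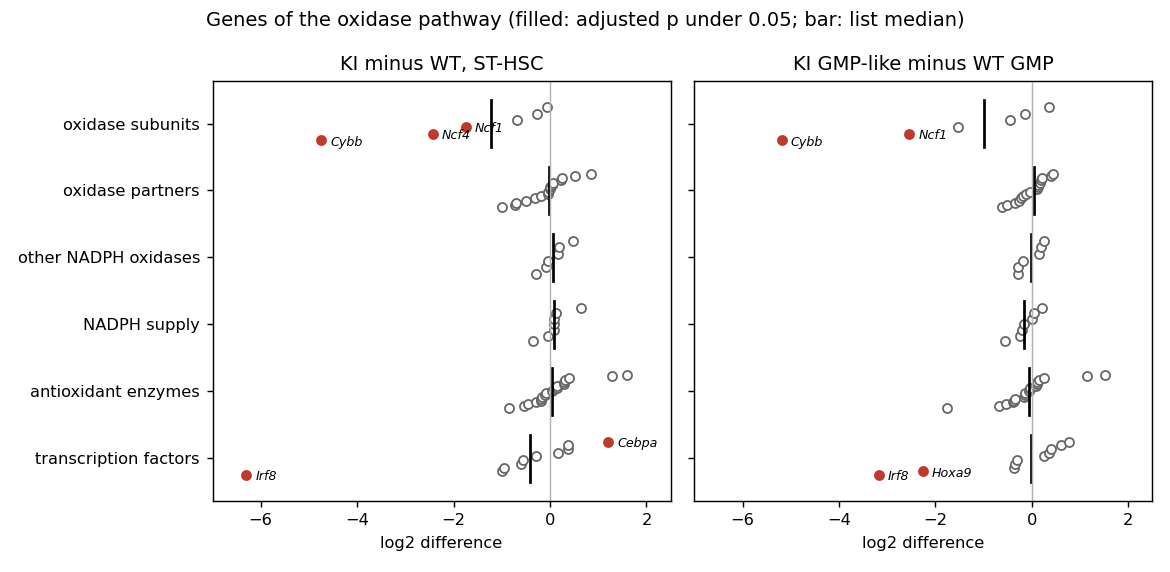
KI minus WT log2 difference (horizontal axis) of each measured gene of the oxidase subunits, 4 related gene lists and transcription factors of oxidase genes, in ST-HSC and in GMP; filled points have an adjusted p under 0.05 and bars are list medians. Among these 6 rows, called points occur in the subunits and the transcription factors. Of all genes, 1.68% were called lower and 1.33% higher in ST-HSC, and 1.40% and 1.19% in GMP. A short list with no call is near these shares.

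Of 10 measured transcription factors reported to act on oxidase genes (of 11 listed), 1 rose and 1 fell in KI ST-HSC, and 2 fell in KI GMP-like cells. Irf8, a partner of PU.1, fell in both, with a difference of -6.30 in ST-HSC (adjusted p = 3.66e-05) and -3.18 in GMP (adjusted p = 0.00291). Cebpa, a factor of granulocyte commitment, rose by 1.21 in ST-HSC (adjusted p = 0.0305), and Hoxa9 fell by 2.26 in GMP (adjusted p = 0.0137). Spi1, which encodes PU.1 itself, had differences of 0.17 (adjusted p = 0.798) and 0.39 (adjusted p = 0.384). The array measures Spi1 RNA, which a point mutation need not alter, so it gives no check of the genotype. Jun, which encodes c-Jun, had -0.95 (adjusted p = 0.606) and 0.77 (adjusted p = 0.671).

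Markers of other cells also differed between KI and WT, and not all of them in the direction of Cybb and Ncf1. The counts stand beside 1.68% of all genes called lower and 1.33% higher in ST-HSC, and 1.40% and 1.19% in GMP. Of 8 measured monocyte and macrophage markers, 3 were lower in KI ST-HSC (Mpeg1, Csf1r and Ccr2) and 2 in KI GMP-like cells (Mpeg1 and Csf1r), and their summed unlogged signal ranged from 220 to 294 in KI ST-HSC, against 4570 to 7870 in WT ST-HSC, and from 301 to 869 in KI GMP-like cells, against 2260 to 3560 in WT GMP. The differences of Csf1r, the M-CSF receptor, were -7.10 in ST-HSC and -3.92 in GMP. Of the list's other genes, C1qa, C1qb, Cd14 and Adgre1, of mature macrophages and monocytes, averaged below 5 on the log2 scale in all 4 groups. Cd68 did not: it averaged 7.10 in WT ST-HSC and 6.59 in WT GMP, against 5.71 in KI ST-HSC and 5.66 in KI GMP-like cells, and was not called. The sum of 8 granulocyte markers ranged from 18700 to 22900 in KI ST-HSC, against 11400 to 19100 in WT ST-HSC. It ranged from 22800 to 27700 in KI GMP-like cells, against 30000 to 31600 in WT GMP. Of the 8, none was called in ST-HSC and 1, Ltf, was lower in KI GMP-like cells. An unlogged sum is carried by its brightest genes, in ST-HSC Mpo and Ctsg, with differences of 0.36 and 1.03 there. The median log2 difference of the 8 was -0.31 in ST-HSC and -0.07 in GMP, so the ST-HSC sum does not stand for most of the list. The part of the monocyte, macrophage and granulocyte markers in the differences of the oxidase genes was not tested.

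Other marker lists differed as well, and their counts stand beside the same shares of all genes (1.68% lower and 1.33% higher in ST-HSC, 1.40% and 1.19% in GMP). Of 6 measured B lineage markers, 3 were lower in KI ST-HSC and 1 in KI GMP-like cells, and of 4 dendritic cell markers 2 and none were lower. Of 5 measured erythroid markers, 2 were higher in KI ST-HSC and none passed in GMP. Of 5 mast cell and basophil markers, 2 were higher in KI ST-HSC, and in KI GMP-like cells 2 were higher and 1 lower. Of 5 megakaryocyte markers, 2 were higher in KI ST-HSC and 1 in KI GMP-like cells. Of 4 measured T and NK markers, 2 and 1 were higher. Of 5 hepatocyte markers, 1 was lower in each population (Afp), and none of 4 endothelial markers passed. Of 8 measured sort and stem cell markers (of 9 listed), 4 passed the test in ST-HSC, 2 in each direction, and 2 passed in GMP, both with less signal in KI. Slamf1, which encodes the gate marker CD150, and Fcgr3, an Fc receptor of the GMP gate, were higher in KI ST-HSC, with differences of 1.92 (adjusted p = 0.00132) and 1.68 (adjusted p = 0.00165), and had 0.14 (adjusted p = 0.869) and 0.63 (adjusted p = 0.157) in GMP. Cd34 was lower in both KI populations, with -1.41 in ST-HSC (adjusted p = 0.00103) and -2.87 in GMP. Ptprc, which encodes CD45, was lower in both as well, with -2.62 (adjusted p = 0.0128) and -4.16 (adjusted p = 0.00122). Kit was not called, at -0.20 and 0.30. Cd48 was not called either, at 0.16 and -0.02, and averaged 11.84 in KI ST-HSC and 11.68 in WT ST-HSC. RNA does not give the surface level, so these values do not settle which CD48 gate was used. The part of these lists in the results was not tested either.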

How the data were processed

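RNA of 12 sorted samples was measured on Affymetrix MG430 v2 arrays, 1 array per sample, and each array was assigned to its group by its title and genotype. The authors amplified the RNA, normalized the arrays by RMA and deposited log2 values of 45101 probe sets; RMA aligns arrays by quantiles, which removes differences common to all genes, and compresses differences at low signal. Which RMA version was used: not given in the sources used here. After removal of 64 control probe sets, 45037 entered the tests, with no filter on low values. Of these, 34945 have 1 gene symbol, 932 several and 9160 none in the platform annotation. Tests used limma 3.58.1 in R 4.3.3 (4 group means, contrasts.fit, eBayes; 8 residual and 2.52 prior degrees of freedom) with Benjamini-Hochberg adjustment, and the step was tested on simulated data. Arrays carry no read depth, and 3 arrays per group limit the precision. An exact permutation test of 3 arrays against 3 cannot go below p = 0.1.

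The named genes are the 6 members with all their probe sets, for each the 3 genes of highest r, up to 4 genes of smallest adjusted p in each list, and Spi1, Irf8 and Jun. C1qa, C1qb, Cd14, Adgre1, Cd68, Mpo, Ctsg, Kit, Cd48, Cybc1, Hvcn1 and Prkcd were named as examples after their values had been seen. The members and lists were chosen with earlier results of these data known. Alternatives were other scalings, a filter on low values, fewer probe sets, a trended and robust prior, the averaged probe sets of each gene, the population's arrays alone, SAM (written anew, 20 label splits, median of 0 false calls), Xist as a covariate, the WT arrays of low Xist only, the replicate number as a block, and leaving out each array.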

Additional observations from a re-analysis of the deposited data

Results flagged for a closer look

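Alas2, the erythroid enzyme of heme synthesis, and Vwf, an adhesion protein of megakaryocytes and endothelium, had all KI arrays above all WT arrays in ST-HSC and all KI GMP-like arrays below all WT GMP arrays. Alas2 was called higher in KI ST-HSC (0.97, limma, adjusted p = 0.00684), and its difference of -0.27 in GMP did not pass (adjusted p = 0.465). Vwf passed in neither, with 0.72 in ST-HSC (adjusted p = 0.096) and -0.36 in GMP (adjusted p = 0.44). The difference of the differences, GMP minus ST-HSC, was -1.25 for Alas2 (limma, adjusted p = 0.0966) and -1.07 for Vwf (adjusted p = 0.245), and neither passed the test. Both are markers from the lists of other cells and were flagged for this pattern, which no oxidase subunit gene showed. The share of all genes with this pattern was not counted, so its absence from the subunit genes has no background to be judged by. Separation in the lower direction alone occurred in 11.1% of all genes in GMP. Alas2 was dim, with group means of 3.66 to 4.78, and lay below the median of all probe sets in every array. Vwf lay below that median in every GMP array.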

How the results depend on the processing

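The calls of Cybb in ST-HSC held under every alternative tried, its GMP call under all but SAM, the Ncf1 call in ST-HSC under all but SAM and the WT arrays of low Xist, and its GMP call under all. When each array was left out in turn, the difference ranged from -5.21 to -4.27 (ST-HSC) and -5.65 to -4.71 (GMP) for Cybb, and from -2.06 to -1.60 and -2.70 to -2.39 for Ncf1. Ncf4 in ST-HSC ranged from -2.86 to -1.91 and was lost in 2 of these fits, with Xist as a covariate (-1.98, adjusted p = 0.114), without the WT arrays of high Xist (-1.58), in the 6 arrays alone and with SAM. SAM called 1 member lower in ST-HSC (Cybb) and 1 in GMP (Ncf1), with 121 probe sets lower and 41 higher in ST-HSC and 31 and 12 in GMP; without the WT arrays of high Xist 1 member was lower in ST-HSC. Same-numbered KI and WT samples deviated together with r of 0.07, 0.06 and 0.03 in ST-HSC and -0.01, -0.04 and -0.00 in GMP, and the numbers were therefore not read as pairs, although each ST-HSC sample correlated best with its own number, which no more than hints at a pairing; the GMP samples did not. The replicate block was run in 2 codings. As planned, with 1 number shared by both populations, it called 884 probe sets in ST-HSC and 798 in GMP, against 996 and 959 without it, and changed no call of a member (Ncf4 in ST-HSC adjusted p = 0.037). A replicate block within each population, chosen after the calls of the planned block had been seen, called 617 and 468, and Ncf4 in ST-HSC no longer passed (-2.43, adjusted p = 0.0974), which left 2 members lower there. Values that had not passed the test changed sign: Rac2 in ST-HSC (-0.27) to 0.01 with the averaged probe sets of each gene, Rac1 in ST-HSC to 0.03 without the WT arrays of high Xist, and, of the differences between the populations, Ncf1 (-0.79) to 0.00 and Rac1 (-0.08) to 0.11 with that average, Cyba (0.23) to -0.23 without the WT arrays of high Xist, Cybb (-0.45, range -0.93 to 0.03) without WT ST-HSC replicate 2 or WT GMP replicate 1, and Rac1 (range -0.17 to 0.02) without KI GMP-like replicate 3. Subtraction of array medians moved the GMP minus ST-HSC level by more than the spread for Ncf1 (-0.61) and Rac1 (-0.07) in KI and Rac1 (0.00) and Rac2 (0.27) in WT. The causes were not tested.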
